A study of Schizosaccharomyces pombe with 6 samples.

Results

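The transcriptome described here is that of wild-type fission yeast (Schizosaccharomyces pombe) in log phase. It rests on the 3 libraries labelled as wt controls among the 6 libraries of the series, and on all 7269 features of their count tables. Levels are CPM, the counts of a feature scaled to a common library total, which gives the part of the reads that a gene takes, and levels of different genes are set side by side per kilobase of exon length (CPM per kb). The cells were vegetative haploids of genotype wt, for which the labels name no marker, allele or mating type. Asynchronous cultures of 30 mL grew in rich medium at 30 °C and were collected during exponential growth at an optical density of 0.5. The frozen cells were crushed, RNA was purified on columns, and 5 µg of total RNA per sample went through oligo-dT selection before paired-end sequencing. The labels call the 3 cultures biological replicates, and they are called cultures 1, 2 and 3 here.

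Library totals were 19951875, 19074531 and 19906209 counts in cultures 1, 2 and 3. At these depths 3 counts, taken as the limit that a count of 0 allows, stand for 0.15 to 0.16 CPM. In culture 1 5286 features had at least 1 count, in culture 2 5293 and in culture 3 5297. Culture 2 stood apart from the other cultures, so some totals and measures of spread are also given without it.

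In rich medium, fission yeast takes up glucose and ferments much of it to ethanol even with oxygen present. A growing yeast cell spends a large part of its transcription on ribosomes, and the genes for glycolytic enzymes and ribosomal proteins are among its most strongly transcribed. Genes for other carbon sources, for scarce iron or phosphate, for stress and for mating and meiosis are kept low until conditions call for them. Oligo-dT selection keeps polyadenylated messages and removes most ribosomal and transfer RNA, so the shares given here describe messages and not all RNA of the cell.

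Protein-coding features took nearly all counts. They held 99.5% of the counts in each culture, with an SD of 0.00764 percentage points (n = 3). By the prefix of the identifier, the features of chromosome I (SPA) held 42.7%, 42.9% and 42.5% of the counts in cultures 1, 2 and 3. Those of chromosome II (SPB) held 39.4%, 39.6% and 39.6%. Those of chromosome III (SPC) held 17.6%, 17.1% and 17.5%. The 3 chromosomes kept the same order in every culture, and their shares stood beside 38.4%, 30.4% and 15.5% of the annotated exon length. Features numbered as non-coding RNAs (SPNCRNA) held 0.345%, 0.345% and 0.340% of the counts over 1535 features, against 15.3% of the exon length.

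RNAs without a poly(A) tail were close to absent from the tables. The 49 ribosomal RNA features (SPRRNA) together had 2597, 2036 and 2629 counts in cultures 1, 2 and 3, or 0.0130%, 0.0107% and 0.0132% of the library. The 53 small nucleolar RNA features (SPSNORNA), which guide chemical changes of other RNAs, had 641, 539 and 544 counts, and 46 of them had none. The 7 small nuclear RNA features (SPSNRNA) had 2, 3 and 10 counts. None of the 171 transfer RNA features had a count in any culture. The 36 mitochondrial features (SPMIT) had 103, 87 and 98 counts, and 26 of them had none. The 254 features with an ENSRNA identifier had 3, 6 and 7 counts in all. How reads that fit several repeated copies were counted is not given in the sources used here, which touches the ribosomal and transfer RNA values in particular.

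A small set of genes held the bulk of the messages. Features were ranked within each library for this count, and 257, 217 and 242 of them held 50% of the counts of cultures 1, 2 and 3. It took 2095, 1986 and 2051 features to reach 90%, and 3656, 3601 and 3647 to reach 99%. The 100 features of highest mean CPM, all protein-coding, held 33.3%, 36.0% and 34.4%, with a mean of 34.6% and an SD of 1.37 (n = 3). Without culture 2 the mean was 33.8%. Of the 100 most abundant features of each culture, 84 were shared by all 3 cultures. Among protein-coding features, 181 exceeded a mean of 1000 CPM and held 44.8% of the counts, while 1721 between 100 and 1000 CPM held 43.7%. The 4539 coding features with a count had a median of 81.3 CPM and a lower quartile of 33.2 CPM.

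**Figure D1:**
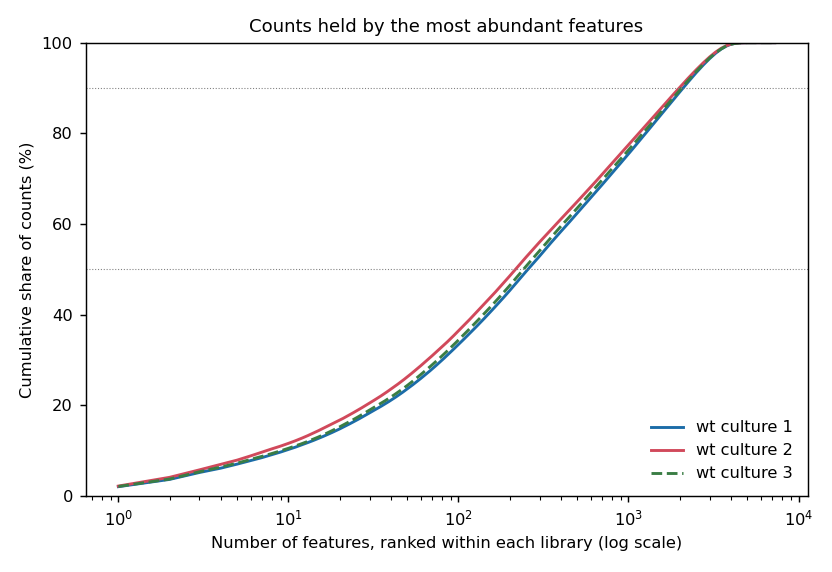
Cumulative share of counts (%) against the number of features on a log axis, with features ranked within each of the 3 wt libraries, 1 line per culture; dotted lines mark 50% and 90%. The lines run close together, and culture 2 lies above the others, reaching 50% of its counts with 217 features against 257 and 242 in cultures 1 and 3.

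The 100 most abundant coding features were shorter and more often unspliced than coding features at large. Their median exon length was 1056.5 bases, beside 1682 bases over all 5107 coding features, and 72.0% had a single exon, beside 51.7%. None of the 100 had more than 50% of its exon length in common with another counted feature, which was the case for 22.0% of all coding features. Listed levels fell with such overlap, from a median of 55.6 CPM per kb without it to 10.6 at 50 to 75%. Whether a ranking by counts misses overlapped features was not tested, and their absence is not read as a trait of abundant genes. Ribosomal proteins supplied 47 of the 100, enzymes of glycolysis and fermentation 9, translation factors 7 and chaperones 6. Of the 100, 21 were in none of the 26 gene lists described here. Ranked by CPM per kb, 73 of the first 100 were ribosomal protein genes.

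Glycolysis and fermentation took the most counts per gene. The 19 genes of this list held 8.86%, 9.53% and 9.18% of the counts of cultures 1, 2 and 3. The gene with the most counts was tdh1, which encodes glyceraldehyde-3-phosphate dehydrogenase, with 414571, 422574 and 423689 counts. Its mean was 21405.5 ± 696 CPM (SD, n = 3), or 2.14% of all counts. The aldolase gene fba1 had 305114, 366824 and 320413 counts and the enolase gene eno101 had 319692, 314741 and 324584. These 3 genes together held 5.21%, 5.79% and 5.37% of the libraries, and they were also the 3 highest per length, at 14692, 13193 and 11171 CPM per kb.

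The lower part of the pathway stood far above its entry. Phosphoglycerate mutase (gpm1) averaged 9028 CPM per kb, pyruvate decarboxylase (pdc101), which commits pyruvate to ethanol, 5673 CPM per kb, and triosephosphate isomerase (tpi1) 3774 CPM per kb. Phosphoglycerate kinase (pgk1) and pyruvate kinase (pyk1) followed with 3286 and 2253 CPM per kb. The genes of the first steps were lower, with 872 CPM per kb for hexokinase 2 (hxk2), 794 for phosphoglucose isomerase (pgi1) and 603 for phosphofructokinase (pfk1). The kinases of the pathway were lowest in culture 2, and the aldolase and mutase were highest there. For pgk1 the counts were 116492, 85270 and 116788 in cultures 1, 2 and 3, for pfk1 41869, 28283 and 44940, and for gpm1 127533, 158364 and 133933.

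Of the genes for glyceraldehyde-3-phosphate dehydrogenase, tdh1 held most of the counts. The second dehydrogenase gene gpd3 had 8686, 3871 and 8767 counts, and averaged 257 CPM per kb, against 14692 CPM per kb for tdh1. The second enolase gene eno102 was listed at 8, 0 and 2 counts, with 79.2% of its exon length in common with other counted features. These counts do not show how low the eno102 message is. The alcohol dehydrogenase gene adh1, known as one of the most strongly expressed genes of this yeast, was listed at 2, 0 and 2 counts although no matched feature overlapped it. The mitochondrial alcohol dehydrogenase gene adh4 had 3722, 2456 and 3568 counts. Why adh1 is at or near 0 was not tested, and its value here gives no measure of its message.

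Ribosomal proteins were the largest group. The 137 genes for proteins of the cytosolic ribosome held 18.2%, 19.7% and 18.7% of the counts of cultures 1, 2 and 3, with a mean of 18.8% and an SD of 0.758 (n = 3). Without culture 2 the mean was 18.4%. Genes of the large subunit (rpl and rpp) held 10.5%, 10.9% and 10.7%, and those of the small subunit (rps) held 7.68%, 8.72% and 7.96%. Among the 70 large-subunit genes with a count, the quartiles of CPM per kb were 1355 and 3341, and among the 43 small-subunit genes with a count they were 1984 and 3308. The whole range ran from 15.2 CPM per kb (rpl2002, with 0% overlap) to 5545 in the large subunit and from 776 to 6194 in the small subunit.

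The highest ribosomal protein genes by counts were rpl8, rps102 and rps7. The 60S gene rpl8 had 97919, 97218 and 99544 counts and averaged 5545 CPM per kb, with little spread between the cultures. The 40S gene rps102 had 91428, 110108 and 91703 counts and rps7 had 87226, 106775 and 91171. Both were highest in culture 2. Per length rps7 led with 6194 CPM per kb, followed by rpl8, rps13 at 5514 and rps102 at 5433 CPM per kb.

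Most ribosomal proteins of fission yeast are encoded by 2 or 3 near-identical genes, and reads that match several copies may not have been assigned to the right one, so the values of paralogs are uncertain. Of 56 such families, 30 could be compared, with a count for every member and under 10% of the exon length in common with other counted features. The ratio of the highest to the lowest paralog in CPM per kb had a median of 1.91 over these 30 families and exceeded 2 in 13. It ran from 1.01 for rpl501 and rpl502 to 8.91 for rpl3401 over rpl3402. In 28 of the 30 families the same gene was highest in all 3 cultures. In a further 19 families at least 1 member had no count.

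Translation factors followed. The 26 genes of this list held 3.89%, 4.60% and 4.18% of the counts of cultures 1, 2 and 3, and 21 of the 25 with a mean over 1 CPM were highest in culture 2. The fungal elongation factor gene tef3 had 110704, 136952 and 124381 counts. The genes for elongation factor 1-alpha, which brings aminoacyl-tRNA to the ribosome, had 102486, 116064 and 110725 counts (tef101) and 79514, 114583 and 94314 counts (tef103). They are near-identical copies, so the division between them is uncertain. The helicase gene tif1 (eIF4A) averaged 2496 CPM per kb and the cap-binding factor gene tif45 (eIF4E) 254 CPM per kb. The release factor gene erf1 was listed at 0 in every culture, with 95.3% of its exon length in common with other counted features.

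Chaperones held 3.74%, 3.72% and 3.72% of the counts, so their total hardly differed between the cultures. The cytosolic Hsp70 gene ssa2 had 179021, 179685 and 170836 counts, the ribosome-associated Hsp70 gene sks2 had 155808, 177430 and 165700, and hsp90 had 104536, 104322 and 98494. Per length ssa2 and sks2 averaged 3928 and 4007 CPM per kb. The stress-induced members moved apart from this steady total. The small heat shock gene hsp16 had 14508, 2947 and 13830 counts, the disaggregase gene hsp104 16461, 5571 and 15905, and the second Hsp70 gene ssa1 18600, 7032 and 20243. All 3 were lowest in culture 2. Ribosomal proteins, translation factors, glycolysis and chaperones together made up 4.07% of coding features and held 34.7%, 37.5% and 35.8% of the counts, with 69 of the 100 most abundant features.

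**Figure D2:**
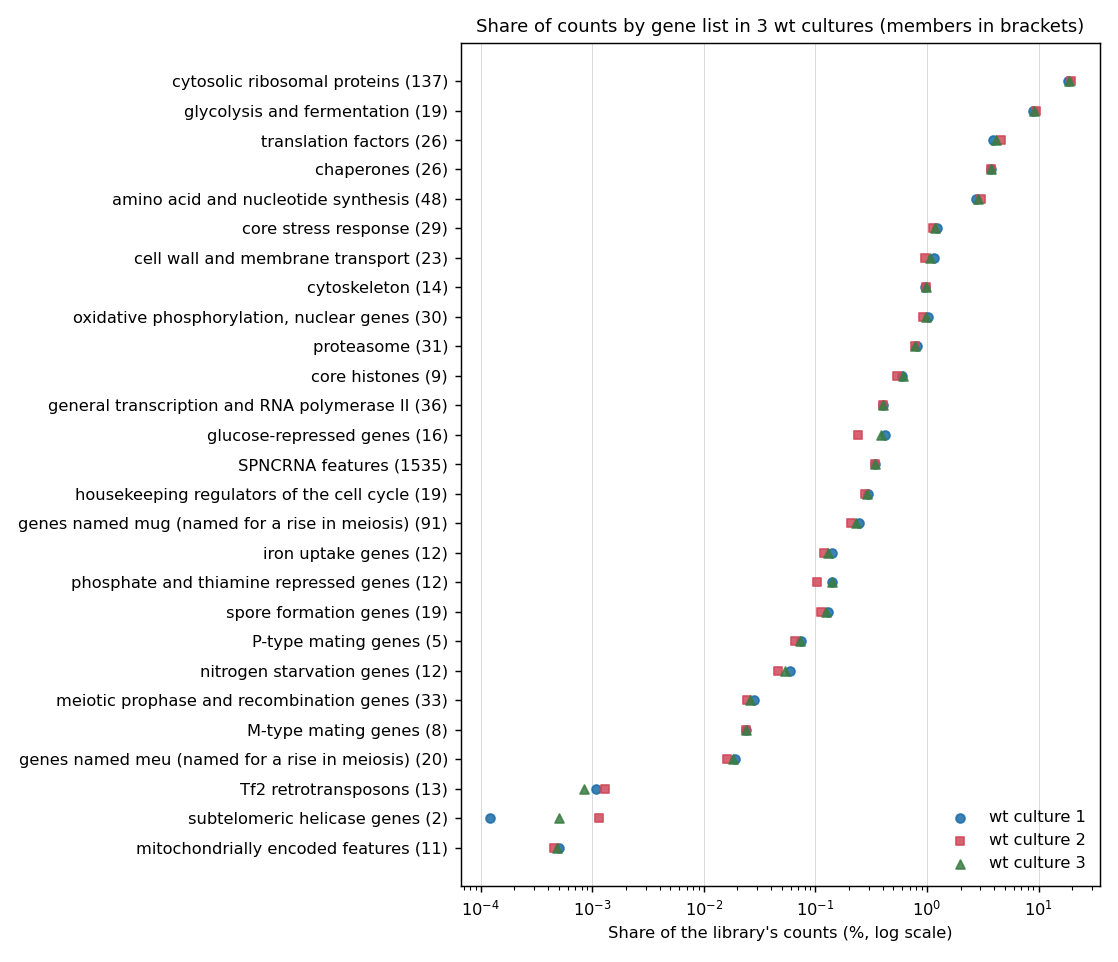
Share of each library's counts (%, log axis) taken by each of 26 gene lists and by the SPNCRNA features, with 1 symbol per wt culture and the number of members in brackets. The cytosolic ribosomal proteins lead with 18.2%, 19.7% and 18.7% in cultures 1, 2 and 3, and glucose-repressed genes lie apart in culture 2 at 0.243%, against 0.417% and 0.383% in cultures 1 and 3.

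Other functions of growing cells took smaller shares. The 48 genes of amino acid and nucleotide synthesis held 2.75%, 3.07% and 2.86%, led by met26 (methionine synthase) with 75689, 109094 and 78650 counts and ilv5 (branched-chain amino acid synthesis) with 80977, 80479 and 84791. Genes often used as selection markers had counts: ura4 had 3755, 3614 and 3584, leu1 12185, 13252 and 12823, and ade6 4625, 4768 and 4813. Such counts do not tell which alleles of these genes the strain carries. The 30 nuclear genes of oxidative phosphorylation held 1.02%, 0.920% and 0.987%, with the ATP synthase gene atp2 at 938 CPM per kb and cytochrome c (cyc1) at 1031 CPM per kb. The 11 mitochondrially encoded features, grouped by identifier alone and of any function, had between 0.000456% and 0.000506% of the counts. Mitochondrial messages of fission yeast are known to carry no poly(A) tail.

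The 14 cytoskeleton genes held 0.962%, 0.988% and 0.981%, of which actin (act1) was the largest with 79308, 79801 and 82835 counts. Proton ATPase pma1, which powers nutrient uptake, led the 23 genes of cell wall and membrane transport with 52307, 58783 and 51320 counts, and that list held 1.16%, 0.955% and 1.05%. The 31 proteasome genes held 0.815%, 0.779% and 0.784% at a median of 213 CPM per kb. The 9 core histone genes held 0.592%, 0.536% and 0.607%, led by htb1, the only H2B gene, with 31832, 28839 and 33378 counts. The H2A gene hta1 and the H4 gene hhf3 were listed at 0, and both had 100% of their exon length in common with other counted features. General transcription factors and RNA polymerase II (36 genes) held 0.404%, 0.406% and 0.401%.

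Regulators of the cell cycle were present at moderate levels. The 19 genes of this list held 0.298%, 0.276% and 0.287% with a median level of 34.0 CPM per kb (all coding features, 35.1 CPM per kb), and none was at 0. The 14 members with under 10% overlap had a median of 36.2 CPM per kb. That was lower than the 55.7 CPM per kb over the 3216 coding features with so little overlap. The ribonucleotide reductase gene cdc22 led with 14364, 14773 and 14578 counts and the mitotic cyclin gene cdc13 had 10670, 8894 and 10537. The kinase gene cdc2 had 1705, 1670 and 1624 counts. The lowest values were those of srw1, at 7.19 CPM per kb, and the S-phase cyclin gene cig2, at 3.68 CPM per kb, with 21.8% and 77.9% of their exon length in common with other counted features. The spindle pole body gene sad1 had 1612, 1408 and 1610 counts, and csi1, whose product links centromeres to Sad1, had 1271, 1142 and 1225.

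The 16 glucose-repressed genes held 0.417%, 0.243% and 0.383% of the counts. Their median level was 20.9 CPM per kb, lower than the 35.1 CPM per kb of all coding features. The 8 members with under 10% overlap had a median of 44.4 CPM per kb. Over the 3216 coding features with so little overlap it was 55.7 CPM per kb. The hexose transporter gene ght8 had 40136, 18798 and 37896 counts and supplied the largest part. The gluconeogenic enzyme gene pck1 had 2841, 1726 and 2592 counts and the lyase gene icl1 had 43, 56 and 60. The gluconeogenesis gene fbp1 was listed at 0 with 100% of its exon length in common with other counted features. This count does not show how low the fbp1 message is. The 12 iron uptake genes held 0.139%, 0.118% and 0.129%, from ctr4, a copper transporter gene, with 5350, 11977 and 5123 counts, to shu1, a heme uptake gene, with 6, 2 and 4.

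Phosphate- and thiamine-repressed genes (12) held 0.141%, 0.104% and 0.142%. The acid phosphatase gene pho1 had 8558, 3337 and 8798 counts and the phosphate transporter gene pho84 7307, 3621 and 6840, both lowest in culture 2, while pho4 had 3047, 4072 and 3285. The thiamine-repressed gene nmt1 was listed at 0 and was fully overlapped. The 12 nitrogen starvation genes held 0.0591%, 0.0462% and 0.0538%, and ste11, the master regulator of sexual differentiation, had 1651, 567 and 1075 counts. The 29 core stress genes held 1.23%, 1.13% and 1.18%, and their median of 158 CPM per kb stood above the 35.1 CPM per kb of all coding features. Their members did not move as 1 group: tpx1 (peroxiredoxin) had 23790, 48448 and 24038 counts and gst2 (glutathione S-transferase) 2293, 22696 and 1810, both highest in culture 2, whereas gpd1 (glycerol-3-phosphate dehydrogenase) had 51707, 35613 and 51426.

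Messages of mating, meiosis and spore formation were mostly scarce but not absent. The 33 genes of meiotic prophase and recombination held 0.0281%, 0.0244% and 0.0261% of the counts, with a median level of 1.17 CPM per kb (all coding features, 35.1 CPM per kb). By counts the highest member was mes1, with 1209, 1016 and 1162 counts. It averaged 51.6 CPM per kb and had 0% overlap. Next came dhc1 with 1068, 1133 and 1049 counts, at 4.38 CPM per kb. The transcription factor gene mei4 had 115, 78 and 90 counts, the meiotic cohesin gene rec8 132, 61 and 116, and mei3, which triggers meiosis, 7, 12 and 9. The recombination genes rec12 and dmc1 were at 0, and both were fully overlapped by other counted features. Among the 15 genes of this list with under 10% overlap the median level was 3.88 CPM per kb, beside 55.7 CPM per kb over the 3216 coding features with so little overlap. The list also held genes with a role outside meiosis, such as rec14 with 965, 888 and 911 counts. Its entry hrs1 is annotated as a histidine-tRNA ligase, and was at 0 and fully overlapped.

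The 19 genes of spore formation held 0.129%, 0.111% and 0.125%, and the highest, spo20 and psy1, act in membrane traffic of growing cells as well. The spore genes isp3, meu10 and meu14 had 433, 232 and 437 counts, 32, 18 and 28 counts, and none. Other counted features cover 62.5%, 89.4% and 100% of their exon length, so these counts do not show how low their messages are. The 91 genes named mug, for a rise in meiosis, held 0.245%, 0.209% and 0.232% in cultures 1, 2 and 3. The 20 genes named meu, for the same reason, held 0.0189%, 0.0161% and 0.0181%. The 54 genes of both kinds with under 10% overlap had a median of 17.9 CPM per kb. By counts the highest mug gene was mug33, at 142 CPM per kb. The highest meu gene was meu29, at 57.0 CPM per kb. Messages of both mating types were present. The 8 M-type genes held 0.0238%, 0.0241% and 0.0241%, with 1087, 1053 and 1097 counts for mam4, which modifies the M-factor pheromone, and 98, 506 and 332 for the pheromone gene mfm2. Of the 5 P-type genes, sxa1 had 13978, 11749 and 13662 counts and stood high, at 309 CPM per kb. The pheromone gene map2 had 79, 81 and 94 counts and the receptor gene map3, which is largely overlapped by other counted features, 89, 81 and 93. With under 10% overlap, 7 M-type genes had a median of 12.6 CPM per kb and 3 P-type genes 7.81 CPM per kb. The mating type of the strain was not read from these values.

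Most SPNCRNA features had few counts. Of the 1535 features, 728 had none in any culture, 402 exceeded a mean of 1 CPM and none reached 100 CPM. The 10 most abundant held 18.8%, 18.0% and 18.0% of the counts of the class and the first 50 held 49.6%, 48.1% and 48.6%. The highest was SPNCRNA.1115, annotated as a possible alternative untranslated region, with 2498, 1048 and 2238 counts, and 78.2% of its exon length was shared with other counted features. Next came rse1, a non-coding RNA annotated as a repressor of ste11 in cis, with 2109, 1719 and 1845 counts, and SPNCRNA.1096 with 1517, 1968 and 1618. Per length these 3 averaged 24.7, 25.5 and 52.2 CPM per kb, beside a median of 42.7 CPM per kb over coding features with a count.

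In the minor classes single features stood out. The 28S ribosomal RNA features SPRRNA.49, SPRRNA.47 and SPRRNA.48 had 1196, 810 and 1220, 873, 475 and 662, and 159, 137 and 190 counts in cultures 1, 2 and 3. Among small nucleolar RNAs snR101 had 437, 456 and 380 of the counts, snoR54b had 106, 9 and 74, and snoR69 had 50, 35 and 41. The spliceosomal RNA snu2 had 2, 3 and 8. Of the mitochondrial features, SPMIT.07 had 37, 36 and 32 counts, SPMIT.01 35, 26 and 37, and SPMIT.04 19, 14 and 6. The feature SPMTR.01 had 193, 197 and 220 counts and held nearly all counts of its 4-member class. These identifiers of mitochondrial and SPMTR features matched no entry of the reference, so they are given by identifier only.

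Of all 7269 features, 1838 (25.3%) had no count in any of the 3 cultures, and 568 of them were protein-coding. A count of 0 did not by itself mark a silent gene, since genes that growing cells need were among the 568. They include spt16 (histone chaperone), cct2, cct5 and cct6 (subunits of the folding chamber for actin and tubulin), hsp10, arp3 (actin branching), rpb7 (RNA polymerase II) and rps23. For each of these, 100% of the exon length is also annotated to another counted feature.

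The share of coding features at 0 went with this overlap. Of the 2182 coding features with no exon overlap, 42 were at 0, or 1.92%. Among those with 75 to 90% of the exon length shared it was 38 of 244, or 15.6%, and with 90 to 99% it was 121 of 220, or 55.0%. Above 99% it was 341 of 369, or 92.4%. Of the 568 coding features at 0, 81.3% had more than 90% of their exon length in common with other counted features, beside 2.80% of the 4539 with a count. Where the overlap lay on the opposite strand alone, 300 of the 327 features above 99% were at 0. The same order held for SPNCRNA features, with 49 of 310 at 0 without overlap and 213 of 216 above 99%.

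The overlap was read from the annotation of another assembly version and covers matched features only, so it is a lower limit for some genes. The strand setting of the counting and its treatment of reads shared by several features are also not given, and the part they have in these zeros was not tested. The counting program named in the submitters' notes, HTSeq, leaves reads that fall in several features unassigned in its default mode. Of the 24 ribosomal protein genes at 0, 20 had at least 99% overlap, and these were all the members with so much. Shares of gene lists leave out the genes listed at 0, which number 24 of 137 in ribosomal proteins, 8 of 48 in amino acid and nucleotide synthesis and 4 of 26 in chaperones. In smaller numbers the same held for rip1 and qcr10 (respiratory complex III), rpt5 (proteasome), rpb9 (RNA polymerase II), pdc202 (pyruvate decarboxylase), obr1 (core stress), ght6 and gut2 (glucose-repressed) and mfm3 (M-factor pheromone). Each of these 9 was at 0 with 100% overlap, and tfb5 (TFIIH) was at 0 with 88.6%.

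**Figure D3:**
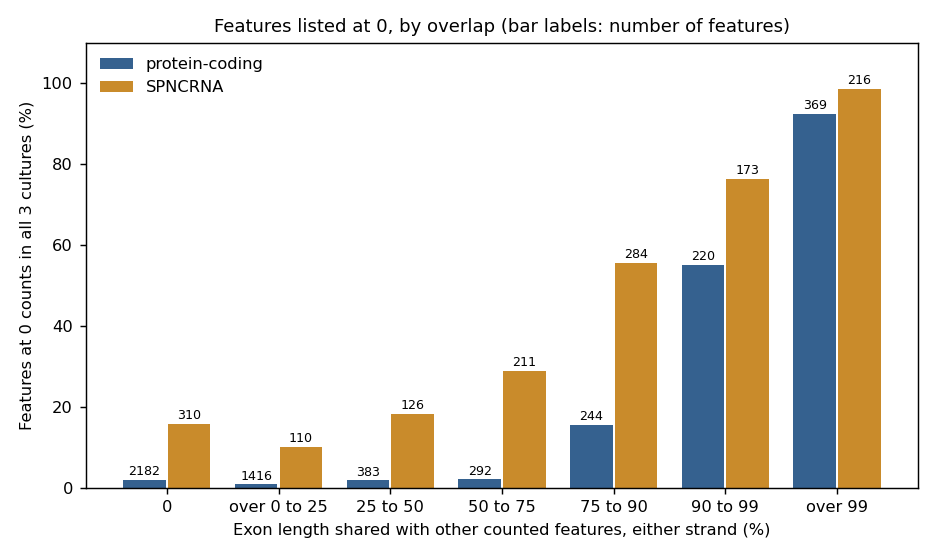
Share of features with 0 counts in all 3 wt cultures (%), for protein-coding and SPNCRNA features, by the share of exon length in common with other counted features on either strand; numbers above the bars are the features in each class. For coding features the bars stand between 0.847% and 2.05% up to 75% overlap and reach 92.4% above 99%, and for SPNCRNA features the bar above 99% reaches 98.6%.

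Genes without counts that overlap little with others were few. Of the 3216 coding features with under 10% overlap, 48 had no count in any culture and 75 more averaged under 1 CPM. The 48 include genes tied to meiosis, such as rec6 (recombination), spn5 (meiotic septin) and mug116. With so little overlap, 1 of 15 meiotic prophase genes and 1 of 6 spore formation genes were at 0. Of the mug genes it was 1 of 47 and of the meu genes 0 of 7, beside 48 of 3216 coding features. These numbers are too small to set meiotic genes apart. Also among them are 3 of the 13 Tf2 retrotransposon features (Tf2-5, Tf2-7 and Tf2-12), and the mating-type genes mat1-Mc and mat1-Mi, and many of the rest are annotated as uncharacterized proteins. The mat1 genes have copies at the silent cassettes, so reads common to the copies may be missing from all of them. They also include genes that growing cells need, mob1 (mitotic exit and septation), dcp2 (mRNA decapping) and ura6 (uridylate kinase). A count of 0 for these 3 is therefore not taken as silence, and its cause was not tested. These 3 were chosen after their values were seen.

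The Tf2 elements are near-identical copies, and reads common to several copies may be missing from all of them. Tf2-11 had 88, 91 and 72 counts, Tf2-2 26, 64 and 44, and Tf2-10 29, 43 and 22, and the list as a whole held between 0.000839% and 0.0013% of the counts. The subtelomeric helicase genes, also repeated, differed between cultures: tlh2 had 21, 201 and 92 counts and tlh1 had 3, 18 and 8. Both were highest in culture 2 and lowest in culture 1. Their levels stood at 0.898 CPM per kb (tlh2) and 0.088 CPM per kb (tlh1). Among genes with under 10% overlap, those between 0 and 1 CPM included mei3, moa1 (9, 13 and 8 counts) and the silent-cassette copy mat3-Mc (0, 1 and 1).

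The 3 cultures were alike over most genes, and cultures 1 and 3 were much closer to each other than to culture 2. Over the 3766 features that averaged 20 CPM or more and had a count in every culture, the median absolute log2 difference was 0.07 between cultures 1 and 3, 0.22 between cultures 1 and 2 and 0.19 between cultures 2 and 3. Counting error alone would give about 0.03 in each pair. Differences above 2-fold were seen for 4 features (0.106%) between cultures 1 and 3, 132 (3.51%) between cultures 1 and 2 and 92 (2.44%) between cultures 2 and 3. The common biological coefficient of variation estimated by edgeR was 0.185 over the 3 cultures and 0.0514 without culture 2. It was 0.212 without culture 1 and 0.236 without culture 3. No pair of libraries was alike within counting error: a chi-square of their counts, divided by its degrees of freedom, came to 9.68 for cultures 1 and 3 and was larger for both other pairs.

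For a typical gene the spread was modest. Among the 3717 coding features with a mean of at least 20 CPM, the median ratio of the highest to the lowest culture was 1.19, and 62.9% lay under 1.25. The median coefficient of variation was 8.98%, and it was 7.38% over the 100 most abundant features. The ratio exceeded 2 in 133 features, or 3.58%. Culture 2 was the lowest culture in 98 of the 133 and the highest in the other 35. Over all 3717 features culture 2 was either highest or lowest in 90.2%, lowest in 1998 and highest in 1356. Culture 1 was lowest in 778 and highest in 1796, and culture 3 was lowest in 941 and highest in 565.

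**Figure D4:**
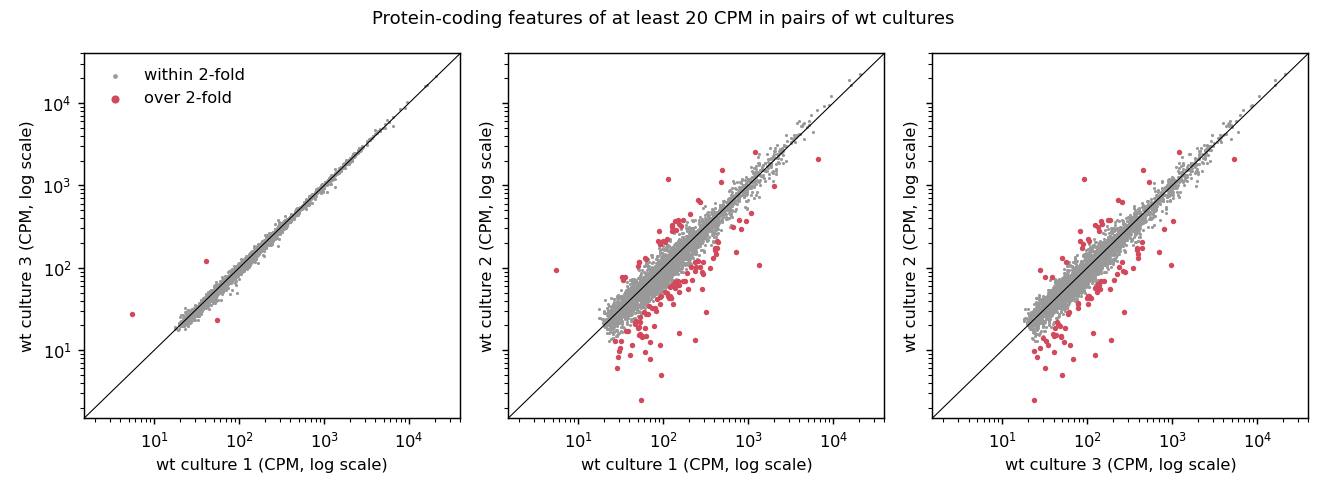
Each panel sets the CPM of protein-coding features with a mean of at least 20 CPM in one wt culture against another, on log axes, with features that differ by over 2-fold in red, the line of equality in black, and features at 0 in either culture not drawn. Cultures 1 and 3 lie close to the line, and both comparisons with culture 2 are wider.

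The most even genes of the well-expressed set were tef5, an elongation factor subunit, with 49905, 47864 and 49874 counts and 2505 ± 4.02 CPM (SD, n = 3), and sec31, of the secretory coat, with 10672, 10223 and 10599 counts. Aconitase (aco1) had 21984, 21136 and 22170 and the histone gene hht1 18382, 17642 and 18660. Actin (act1) had a mean of 4107 ± 115 CPM. Among the 20 most abundant genes, oga1, annotated as protein stm1, had 85780, 100008 and 91916 counts. At the other end, the lysophospholipase gene plb1, one of the 20 most abundant, had 130474, 40295 and 105675 counts, which is 3.10 times less in culture 2 than in culture 1.

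Several of the genes that differed most between the cultures act on sugars or on glycerol. They were grouped after their values were seen, and no share of such genes over all coding features is given. The high-affinity glucose transporter gene ght5 had 26618, 2067 and 18981 counts, and ght1, of the same family, had 1901, 96 and 990. The highest culture exceeded the lowest 12.3-fold for ght5 and 18.9-fold for ght1. The glycerol dehydrogenase gene gld1 had 4690, 256 and 3760 counts and gcd1, annotated as a glucose-6-phosphate dehydrogenase, 3072, 312 and 2348. In each of these 4 genes the fold between culture 2 and the next lowest culture was larger than that between cultures 1 and 3. The invertase gene inv1, which splits sucrose outside the cell, had 5697, 1044 and 3705 counts, and the transporter gene ght4 had 1538, 380 and 957.

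Other genes low in culture 2 were cmt2 (catechol O-methyltransferase) with 1087, 47 and 463 counts and lsd90 with 6384, 547 and 5441. The iron transport genes fip1 and fio1, whose products work as a pair, had 1379, 243 and 1068 and 1252, 287 and 970 counts. The gene gdt1 spread over all 3 cultures, with 40.2, 8.76 and 122 CPM in cultures 1, 2 and 3. Fewer genes were high in culture 2. The gene gst2 was 13.1 times higher there than in culture 3, the aldo-keto reductase gene SPAC977.14c had 9774, 29505 and 8966 counts and the pyridoxal reductase gene plr1 5053, 12667 and 4544. The flavin oxidoreductase gene SPBC23G7.10c had 110, 1769 and 553 counts.

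**Figure D5:**
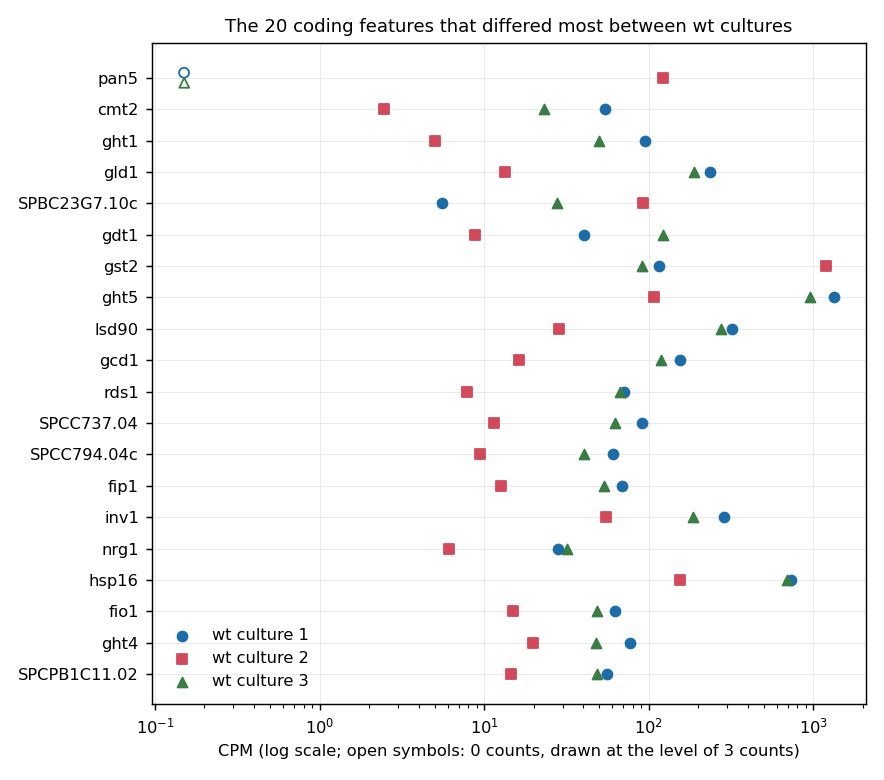
CPM on a log axis of the 20 protein-coding features with the largest ratio of the highest to the lowest wt culture, among those with a mean of at least 20 CPM; open symbols are 0 counts drawn at the level of 3 counts. Culture 2 is the highest culture for pan5, SPBC23G7.10c and gst2 and the lowest for the other 17 features.

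A run of 6 features with consecutive identifiers had counts in culture 2 alone. These features, SPBPB2B2.08, pan5, gal7, tgd1, gal10 and gal1, had no count in cultures 1 and 3. In culture 2 they had 46, 2321, 462, 1, 4 and 279 counts, 3113 in all. The genes gal1, gal7 and gal10 encode the enzymes that convert galactose to glucose phosphate, and pan5 encodes a 2-dehydropantoate 2-reductase of vitamin B5 synthesis. Set against the limit of 3 counts in culture 1, pan5 was at least 809-fold higher in culture 2. Features numbered before this run went the other way: nrg1 had 562, 116 and 631 counts, say1 346, 79 and 298 and SPBPB2B2.06c 292, 47 and 278. The next features after it had few counts or none in any culture. In tgd1 and gal10 98.8% and 93.7% of the exon length is shared with other counted features. The labels give the 3 cultures 1 genotype, and what sets culture 2 apart in this run was not tested.

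Non-coding features that varied most among those with at least 20 CPM were SPNCRNA.388 with 311, 906 and 674 counts, SPNCRNA.1560 with 909, 296 and 739 and SPNCRNA.1115. Their ratios of the highest to the lowest culture were 3.05, 2.94 and 2.28. Of the 38 SPNCRNA features at this level 3 exceeded 2, or 7.89%.

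Set out by gene list, the deviation of culture 2 is given as the median, over members with at least 1 CPM and a count in every culture, of the log2 deviation from the gene's mean over the 3 cultures. Over all 4257 coding features with such a value it was -0.05, with 54.4% lowest and 35.2% highest in culture 2. It was 0.06 for ribosomal proteins and 0.07 for translation factors, with 71 of 113 and 21 of 25 members highest in culture 2. The 4 Tf2 features at this level had a median of 0.52, all highest in culture 2, and the helicase gene tlh2 stood at 1.5. These are repeated sequences with few counts, and 9 of the 13 Tf2 features averaged under 1 CPM. The whole Tf2 list held 0.00107%, 0.00129% and 0.000839% of the counts in cultures 1, 2 and 3. The median was -0.44 for iron uptake genes, with 10 of 11 lowest in culture 2, -0.39 for glucose-repressed genes, with 10 of 13 lowest, and -0.31 for core stress genes, with 17 of 28 lowest, near the share over all coding features. Nitrogen starvation genes were at -0.23, meiotic genes at -0.22, spore formation genes at -0.19 and genes of cell wall and membrane transport at -0.17. Cell cycle regulators stood at -0.17, with 14 of 19 lowest in culture 2. With library sizes scaled by TMM, the values quoted here kept their sign, and the median over all coding features was -0.00 in culture 2. For cultures 1 and 3 the corresponding medians were 0.27 and 0.17 in iron uptake genes and 0.26 and 0.17 in glucose-repressed genes.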

How the data were processed

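The raw counts of the 3 wt libraries were used as the authors deposited them, with no scaling. The programs named are HISAT2, HTSeq and DESeq2 and the build ASM294v2, per the submitters' processing notes. For their versions, the annotation release, the strand setting and reads that fit several places or features, the answer is not given in the sources used here. A further 18 columns of normalized values per library were not used.

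CPM was computed here over plain library totals, with Python 3.11.15 and pandas 2.3.3. Names, biotypes, exon lengths and overlaps came from RefSeq for assembly ASM294v3, which matched 6847 of 7269 identifiers. The 422 others kept their identifiers and held under 0.095% of each library's counts, and since the builds differ no coordinates or sequences are given. Overlap is the share of a feature's exon positions that other counted features also cover, on either strand. The coefficient of variation was estimated with edgeR 4.0.16 (R 4.3.3, TMM, intercept only, features of at least 1 CPM) and tested on simulated data of known spread. No test between groups was made, since all libraries are of 1 genotype. If the cultures were not grown apart, the SDs measure technical spread only.

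Members and lists were chosen with earlier results of these data known. Named genes were taken from the 20 coding features of highest CPM and the 10 of highest CPM per kb, the 3 highest of every other class, the ends of each list, and the 10 coding and 3 non-coding features of largest ratio between cultures; other genes were named after their values were seen. Alternatives were TMM and DESeq2 1.42.0 size factors, totals without ribosomal RNA, coding counts only, per-length shares, other limits for a silent feature, other filters and each culture left out.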

Additional observations from a re-analysis of the deposited data

How the results depend on the processing

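Of 50 recomputed values under alternative settings, 39 stayed within 1 SD of the cultures or within 1.5 times the count, and 11 moved. Counted per kb of exon length, SPNCRNA features held 0.402% (0.343% of counts), the first 100 features 38.7% (34.6%), ribosomal proteins 35.8% (18.8%) and glycolysis 8.21% (9.19%). Per kb of exon length that no other feature covers, an alternative added after the data were seen, ribosomal proteins held 34.6% and glycolysis 7.81%. The 1838 features at 0 became 568 with protein-coding features only, 328 with under 10% overlap and 578 with at least 99% overlap (both added after the data were seen); the limits of 1 count, 0.1 CPM and 1 CPM gave 1980, 1980 and 2495. Leaving out each culture in turn gave 0.343% to 0.345% for SPNCRNA features, 33.8% to 35.2% for the first 100, 18.4% to 19.2% for ribosomal proteins, 9.02% to 9.36% for glycolysis, 1877 to 1901 features at 0, 0.0686 to 0.22 for the median absolute log2 difference and 0.0514 to 0.236 for the coefficient of variation. The lowest of the last pair of ranges, 0.0686 and 0.0514, are those without culture 2, against 0.16 and 0.185 with all cultures. No paired analysis was possible because the described libraries form 1 group and no result comes from a test. The planned search for promoter motifs was not run. With 3 cultures a spread rests on few values, and a feature at 0 is known only to lie under about 0.15 CPM where its reads could be counted.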
